A study of Mus musculus with 8 samples.

Results

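The response of the pancreas to FAEE-SAP (severe acute pancreatitis from fatty acid ethyl esters) was compared between cKO and WT mice, gene by gene, over all 8 of the 8 libraries of the series. Bulk RNA-Seq had been run on pancreas of male mice aged 8 weeks, with 2 libraries in each of 4 groups, and the design text calls these biological replicates. The WT saline group received normal saline, and the WT FAEE-SAP group received palmitoleic acid (POA) with ethanol, both given intraperitoneally. The cKO saline and cKO FAEE-SAP groups received the same in mice whose floxed *Pfkfb3* is deleted by Cre expressed under the *Pdx1* promoter, which is active in the precursors of acinar, ductal, and islet cells and not in leukocytes. Tissue was taken 24 hours after modeling. The methods state a fast before modeling and buprenorphine with the first dose of POA and ethanol, and whether the saline mice received it is not given in the sources used here. By the methods the WT mice were bought from a supplier while the floxed line was made separately and crossed to bought Cre mice, so genotype and colony cannot be told apart. The measure was the cKO difference (FAEE-SAP minus saline) minus the WT difference, on log2 of RPKM (reads per kilobase of exon per M reads) scaled between libraries, and it is called the interaction. A gene was called at a Benjamini-Hochberg adjusted p under 0.05 and at least 2-fold, and 11133 genes were tested, those that reached an RPKM of 0.5 in 2 or more libraries.

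In FAEE-SAP, acinar cells turn ethanol and a fatty acid into fatty acid ethyl esters, which raise cytosolic calcium, deplete ATP, and activate digestive enzymes within the cell. Injured acinar cells lose their secretory program, release chemokines that draw neutrophils and later monocytes, and switch on secreted stress proteins such as the Reg (regenerating) family and the acute-phase proteins. PFKFB3 makes fructose-2,6-bisphosphate, the activator of phosphofructokinase in glycolysis. An interaction asks whether the genotype changes this response, and it is separate from a genotype difference that is already there with saline.

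*Pfkfb3* itself was examined before other genes, since its value bears on the labels. Its scaled RPKM was 1.70 and 1.69 in WT saline, 1.85 and 3.21 in WT FAEE-SAP, 0.880 and 2.10 in cKO saline, and 1.74 and 2.82 in cKO FAEE-SAP. The genotypes overlapped under both treatments, and the interaction was 0.16 (SE 0.61, limma adjusted p = 0.939). The value covers the whole gene (chr2:11471433-11554077, minus strand, GRCm38), so it does not show whether the floxed exons are gone, and genotype refers to the labels throughout. Depth worked out from the smallest values was 22.9 to 37.6 M reads per library. In these libraries 32 digestive enzyme genes held 84.3% to 86.9% of all RPKM with saline, 64.3% and 66.9% in WT FAEE-SAP, and 79.5% in each cKO FAEE-SAP library. Because RPKM is a share of the library, the scaling factors also differed, from 0.621 to 0.866 with saline to 1.94 and 2.02 in WT FAEE-SAP against 0.975 and 1.05 in cKO FAEE-SAP. In bulk tissue, fewer cells of a type and less RNA per cell cannot be told apart.

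The interaction was called for 8 of 11133 genes (0.0719%), 5 with a positive value (0.0449%) and 3 with a negative value (0.0269%). A positive interaction means that the cKO difference lay above the WT difference, whether as a smaller fall, a larger rise, or an opposite change. Without adjustment, 1398 genes (12.6%) had p under 0.05, of which 687 were positive (6.17%) and 711 negative (6.39%). With at least 2-fold besides, 424 were positive (3.81%) and 358 negative (3.22%), and by size alone, with no test, 697 genes (6.26%) reached 2-fold in the positive direction and 540 (4.85%) in the negative one. The median interval of a gene's interaction (95%) reached 0.83 (log2) to either side, without adjustment for the number of genes tested. For a gene of median spread the adjusted test needed a larger interaction than that, so few calls do not show that few genes differ. A limma fit that treats each replicate number as a block called 0 genes (1314 with unadjusted p under 0.05), and the fits without 1 library made 0 to 4 calls each, of which 0 to 2 were among these 8. The WT response alone was called for 833 genes (7.48%), 374 rises (3.36%) and 459 falls (4.12%), and the cKO response alone for 14 rises (0.126%) and 1 fall (0.00898%), counts that do not test the difference between genotypes.

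Responding genes were chosen on the mean of the WT and cKO responses, which gives both genotypes equal weight, and 235 rose (2.11%) and 230 fell (2.07%). They were sorted by the interaction: damped where cKO moved by at least 1 (log2) less in the direction of the response, enlarged where it moved by at least 1 more, and kept in between. Among the rises, 101 were damped (0.907% of all genes tested), 121 were kept (1.09%), and 13 were enlarged (0.117%). Among the falls, 134 were damped (1.2%), 93 were kept (0.835%), and 3 were enlarged (0.0269%). The sort used the interaction itself, so its counts are a description. They also follow the filter on RPKM as deposited: 42 of the 101 damped rises, 25 of the 121 kept rises, and 0 of the 13 enlarged rises passed it only through the WT FAEE-SAP libraries, as did 11.9% of all genes tested, and such genes had to be high there. Only through cKO FAEE-SAP passed 1 of the 13 enlarged rises (7.69%, against 1.6% of all genes tested). Near the limits, *Slfn4* was kept at -0.998 and *Ifitm3* at 0.947, and *Qsox2* was damped at 1.001 and *Rbp2* was enlarged at -1.007.

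**Figure D1:**
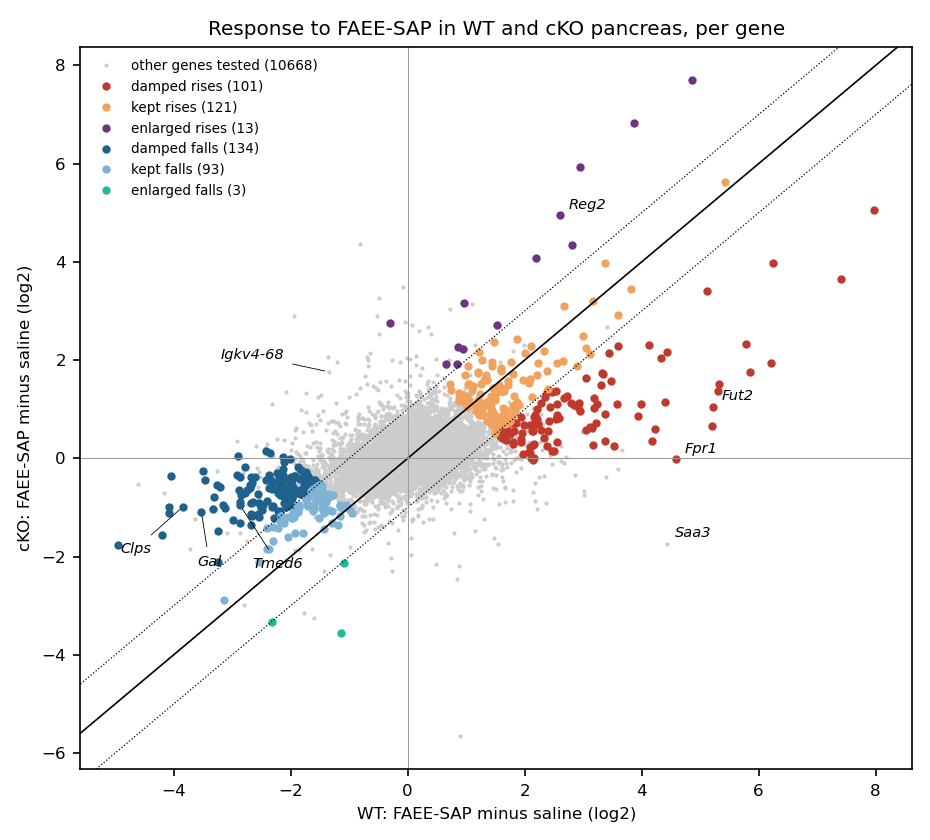
Each point is a gene, with its FAEE-SAP minus saline difference in WT (x axis, log2) against that in cKO (y axis, log2), as fitted over 2 libraries per group. The solid line marks equal responses and the dotted lines an interaction of 1 either way, and the 101 damped rises and 134 damped falls lie past a dotted line on the side of the horizontal zero line while the enlarged rises lie above it.

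The damped rises had a median response of 2.54 in WT and 0.75 in cKO, and the damped falls one of -2.18 in WT and -0.63 in cKO. Kept rises moved by 1.49 in WT and 1.27 in cKO, and kept falls by -1.53 and -0.95. For all responding rises the median ratio of the cKO to the WT response was 0.59, and for the falls it was 0.40. Only 8 of the 121 kept rises and 6 of the 93 kept falls had an interval of the interaction wholly within 1 either way, so most kept genes are not shown to respond alike. The share of damped genes rests on which genes are taken: it was 43.0% of the rises and 58.3% of the falls as sorted here, 56.4% and 57.3% among genes called in WT, and 2 of 14 rises and 0 of 1 falls among genes called in cKO. When each library was left out in turn it ranged from 39.7% to 49.1% for the rises and from 40.6% (without cKO saline 2) to 68.7% (without WT FAEE-SAP 1) for the falls.

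Genotype differences with saline and with FAEE-SAP make up the interaction, so in genes sorted by it they are a description. Median cKO minus WT differences of the damped rises were 0.13 with saline and -1.71 with FAEE-SAP, and those of the damped falls were 0.12 and 1.64. The FAEE-SAP difference was the larger of the pair in 96 of 101 damped rises and 132 of 134 damped falls, against 69.6% of all genes tested. It was also the larger in 86 of 93 kept falls (92.5%) and 85 of 121 kept rises (70.2%), so in the falls this was shared by damped and kept genes. Enlarged rises had another pattern, with a median of -0.88 with saline and 0.71 with FAEE-SAP.

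**Figure D2:**
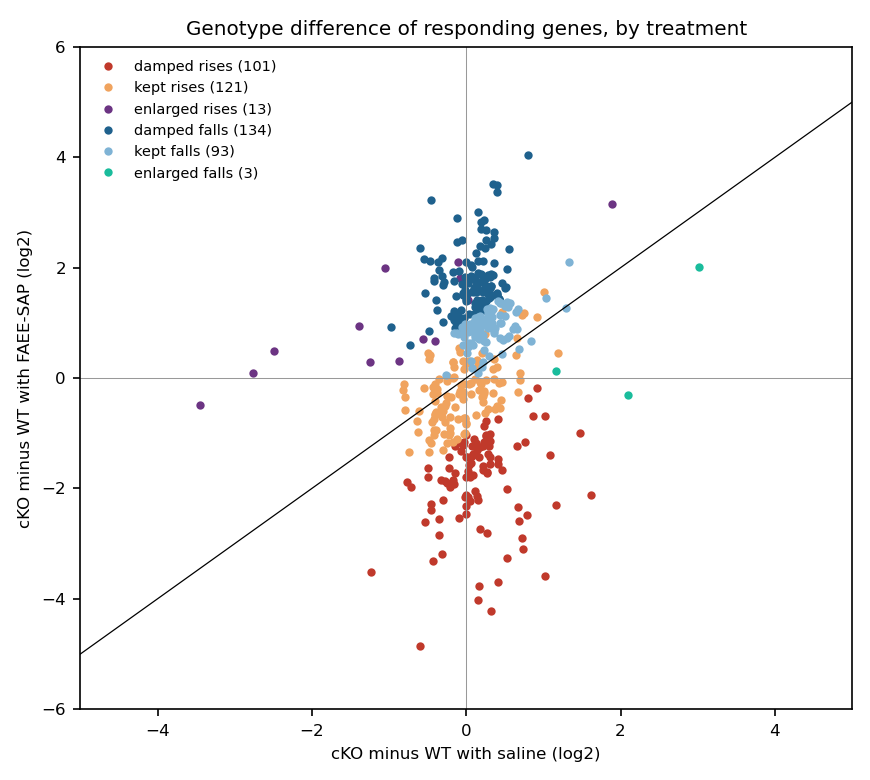
Each point is a responding gene, with its cKO minus WT difference with saline (x axis, log2) against that with FAEE-SAP (y axis, log2). Damped genes spread vertically near an x value of zero, and the enlarged rises at the left, among them *Reg3g* at -3.45, were lower in cKO with saline.

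The exocrine program fell in WT, and its differences in cKO were smaller. Of 31 digestive enzyme genes tested, 28 fell in WT (4.12% of all genes) and 0 in cKO (0.00898%) by limma with Benjamini-Hochberg adjustment (5 in cKO at an unadjusted p under 0.05 and 2-fold), 19 were damped falls (1.2%) and 8 were kept falls (0.835%), with a median response of -1.96 in WT and -0.87 in cKO. The median interaction was 1.10 against 0.02 over all genes tested, 30 of 31 were positive, and 25 had an unadjusted p under 0.05 in that direction (6.17% of all genes). Only *Clps*, the colipase that anchors pancreatic lipase on fat droplets, passed the adjusted test. Its scaled RPKM was 20768 and 19496 in WT saline, 1488 and 1313 in WT FAEE-SAP, 21609 and 23160.2 in cKO saline, and 11085 and 11441 in cKO FAEE-SAP. The WT FAEE-SAP libraries stood far below the other 6, and the cKO FAEE-SAP libraries lay between them and saline. The interaction was 2.86 (SE 0.18, limma with Benjamini-Hochberg adjusted p = 0.00722), from a WT difference of -3.85 and a cKO difference of -0.99. *Clps* lies at chr17:28558149-28560766 on the minus strand.

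Other enzymes shared the order of *Clps* with smaller differences. *Ctrc*, a chymotrypsin that degrades trypsin, was at 104 and 71.8 in WT saline, 11.8 and 11.5 in WT FAEE-SAP, 119 and 89.8 in cKO saline, and 67.3 and 64.8 in cKO FAEE-SAP. Its interaction of 2.24 (SE 0.31) did not pass (limma adjusted p = 0.074), although no cKO FAEE-SAP library reached down to WT FAEE-SAP. *Rnase1*, the pancreatic ribonuclease, had an interaction of 2.52 (SE 0.58). Among the most abundant enzymes, the WT and cKO responses were -1.99 and -0.84 for *Cpa1*, -2.31 and -0.98 for *Cela2a*, an elastase, and -2.28 and -1.22 for *Pnlip*, the pancreatic lipase. Amylase genes and the trypsinogens of this list are near-identical copies whose reads may be divided uncertainly, and their interactions of 1.15 for *Amy2a1* and 1.11 for *Try4* carry that limit. *Prss3*, another trypsinogen, was lower in WT by -1.16 and in cKO by -1.18, with cKO saline above WT saline.

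Secretory factors around the enzymes followed in part. *Zg16*, a lectin of the zymogen granule, was at 7224 and 5744 in WT saline, 1053 and 755 in WT FAEE-SAP, 8143 and 7887 in cKO saline, and 4439 and 5148 in cKO FAEE-SAP, and its interaction was 2.11 (SE 0.28, limma adjusted p = 0.074). All WT FAEE-SAP values lay under all others. *Cckar*, the cholecystokinin receptor that triggers secretion, had a WT response of -2.60 and a cKO response of 0.25, but its 2 WT FAEE-SAP libraries were far apart at 23.8 and 4.92. *Spink1*, the trypsin inhibitor of the granule, responded by -1.62 and -0.63 and was a kept fall. Over the 21 tested genes of granules, secretion, and acinar receptors the median interaction was 0.25, with 7 falls called in WT (4.12% of all genes), 1 damped fall (1.2%), and 4 kept falls (0.835%).

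*Tmed6*, a member of the family that sorts cargo between endoplasmic reticulum (ER) and Golgi, and *Gal*, the neuropeptide galanin, were both called. *Tmed6* (chr8:107061476-107065644) was at 204 and 195 in WT saline, 27.9 and 26.8 in WT FAEE-SAP, 247 and 216 in cKO saline, and 119 and 119 in cKO FAEE-SAP. The replicates lay close together, and no groups overlapped. The interaction was 1.91 (SE 0.20, limma adjusted p = 0.0413). *Gal* (chr19:3409915-3414544) was at 65.7 and 58.8 in WT saline, 4.93 and 5.70 in WT FAEE-SAP, 72.7 and 75.5 in cKO saline, and 37.7 and 32.1 in cKO FAEE-SAP, with an interaction of 2.44 (SE 0.23, limma adjusted p = 0.038). Both fell in WT, by -2.86 and -3.53, and neither passed the test in cKO alone, at -0.96 and -1.09.

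*Bhlha15* encodes MIST1, the transcription factor that maintains secretory architecture in acinar cells. It was at 28.3 and 29.9 in WT saline, 3.81 and 1.71 in WT FAEE-SAP, 39.6 and 18.2 in cKO saline, and 20.8 and 19.0 in cKO FAEE-SAP. The WT FAEE-SAP libraries were lowest, and cKO FAEE-SAP lay within the range of cKO saline. Its interaction of 3.03 (SE 0.62) did not pass (limma adjusted p = 0.166). *Ptf1a*, which encodes the acinar lineage factor upstream of enzyme genes, was a kept fall with responses of -1.80 in WT and -1.52 in cKO. Of 13 acinar transcription factors tested 11 were in no class, and the median interaction was 0.35. In WT 3 falls (4.12% of all genes) and 1 rise (3.36%) were called. Their summed scaled RPKM was 127.5 to 142.4 in WT saline and 142.3 to 178 in WT FAEE-SAP, so the list did not fall as a sum. The other genes that the naming rule took from the damped falls were *Rgs11*, a regulator of G protein signaling (3.68), *Cth*, the transsulfuration enzyme cystathionine gamma-lyase (3.24), *Aldh1l2*, a mitochondrial folate enzyme (3.10), and *Serpini2*, a serine protease inhibitor of acinar cells (2.98), each value being an interaction that missed the adjusted threshold. For these 4 genes cKO saline replicates differed widely, as in *Serpini2* at 903 and 434.

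Promoters were read for the damped falls because acinar genes are known targets of the PTF1 complex, whose basic helix-loop-helix part binds the letters CACCTG. Below are the 250 bases before the RefSeq start (GRCm38.p6, minus strand for *Tmed6* and plus strand for *Bhlha15*, written 5′ to 3′), at chr8:107065645-107065894 and chr5:144190036-144190285, with every CACCTG on either strand in capitals.
Tmed6: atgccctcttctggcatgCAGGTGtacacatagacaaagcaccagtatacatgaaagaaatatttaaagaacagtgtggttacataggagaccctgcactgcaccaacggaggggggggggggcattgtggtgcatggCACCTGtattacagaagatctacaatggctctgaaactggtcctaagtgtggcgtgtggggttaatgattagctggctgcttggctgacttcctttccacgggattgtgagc
Bhlha15: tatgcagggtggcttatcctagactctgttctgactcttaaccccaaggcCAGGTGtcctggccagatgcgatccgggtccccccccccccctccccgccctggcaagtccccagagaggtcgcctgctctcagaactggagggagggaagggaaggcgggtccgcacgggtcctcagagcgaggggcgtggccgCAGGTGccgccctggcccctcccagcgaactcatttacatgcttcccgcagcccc
The letters begin 232 and 112 bases before the start in *Tmed6* and 200 and 55 bases before it in *Bhlha15*. In windows of 300 bases (250 before to 50 after the start) CACCTG stood in 25 of the 94 damped falls with a promoter in the table (26.6%), in 17 of 68 kept falls (25%), in 18 of 73 damped rises (24.7%), in 19 of 92 kept rises (20.7%), in 17.6% of the 8468 tested genes matched, and in 19.9% of all 27025 promoters. A match of letters is a description and not a binding site.

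The integrated stress response list, which holds targets of ATF4, had a median response of -1.02 in WT and -0.37 in cKO over 28 genes, with 9 falls (4.12% of all genes) and 1 rise (3.36%) called in WT and 0 calls in cKO (0.135%) (1 fall and 0 rises at an unadjusted p under 0.05 and 2-fold, limma). Of its members 22 were in no class and 6 were damped falls (1.2%). The damped falls included *Slc38a5*, a glutamine transporter, *Pycr1*, for proline synthesis, and *Mthfd2*, a mitochondrial folate enzyme. *Slc38a5* was at 20.1 and 13.5 in WT saline, 0.711 and 0.908 in WT FAEE-SAP, 20.7 and 17.1 in cKO saline, and 6.09 and 6.58 in cKO FAEE-SAP. Its WT FAEE-SAP libraries stood alone at the bottom, and the interaction was 2.64 (SE 0.33, limma adjusted p = 0.0579). *Nupr1*, a chromatin protein induced in acinar stress, went the other way, with a WT response of 1.64, a cKO response of -0.47, and an interaction of -2.11 (SE 0.29, limma adjusted p = 0.074). *Atf4* itself was at -0.29 and -0.27, and neither response was called. ER chaperones and unfolded protein response genes had a median interaction of 0.07 over 32 genes, with opposite members: *Ero1lb*, an oxidase of disulfide formation, at 2.21, and *Hspa5*, the chaperone BiP, at -2.13, where WT FAEE-SAP libraries were 115 and 421.

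Acute-phase genes gave 10 damped rises, of which 3 passed the filter only through WT FAEE-SAP. Over the whole list 8 of the 25 tested did so (32%, against 11.9% of all genes), so its medians are also shaped by the filter. Of 37 genes listed 25 were tested, and 16 rose in WT (3.36% of all genes) and 3 rose in cKO (0.126%) by limma with adjustment. At an unadjusted p under 0.05 and 2-fold (limma), 9 rose and 1 fell in cKO. As sorted, 10 were damped rises (0.907%) and 2 were kept (1.09%). The median response was 2.98 in WT and 0.53 in cKO, with a median interaction of -2.28, or -2.26 with genes absent from a group set at the floor of 3 reads per library. *Saa3*, a serum amyloid A made locally by epithelium and macrophages, was called. Its scaled RPKM was 1.60 and 4.69 in WT saline, 56.6 and 66.4 in WT FAEE-SAP, 5.06 and 3.79 in cKO saline, and 0.943 and 1.63 in cKO FAEE-SAP. WT FAEE-SAP stood above all other libraries, while both cKO FAEE-SAP values lay under both cKO saline values. The interaction of -6.17 (SE 0.67, limma adjusted p = 0.0413) was made of a rise in WT (4.43) and a cKO difference of -1.74 that did not pass, and *Saa3* was therefore in no class of the sort.

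*Saa1* and *Lcn2* were damped rises that were also called in cKO. *Lcn2*, the iron-scavenging lipocalin, was at 0.849 and 1.01 in WT saline, 258 and 259 in WT FAEE-SAP, 0.894 and 1.26 in cKO saline, and 21.7 and 68.7 in cKO FAEE-SAP. Values with FAEE-SAP lay above saline in both genotypes, and WT lay above cKO. It rose in both, by 7.97 in WT and 5.06 in cKO. Its interaction of -2.92 (SE 0.67) did not pass (limma adjusted p = 0.202). *Saa1* rose by 6.25 and 3.98 on this scale. *Saa2* was at 10.0 and 21.4 in WT FAEE-SAP against 0.743 and 0.203 in cKO FAEE-SAP, with saline values from 0 to 0.297, so that 1 cKO FAEE-SAP library lay within the saline range. *Cd14*, the lipopolysaccharide co-receptor, was at 14.3 and 12.6 in WT FAEE-SAP against 2.40 and 2.74 in cKO FAEE-SAP, with an interaction of -3.02 (SE 0.38, limma adjusted p = 0.0579). *Lrg1*, a leucine-rich glycoprotein of the same list, was kept. It was at 10.7 and 11.0 in WT saline, 429.6 and 510.4 in WT FAEE-SAP, 5.08 and 7.62 in cKO saline, and 249.9 and 394 in cKO FAEE-SAP, and the interaction was 0.21 with an interval from -0.68 to 1.11.

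Neutrophil genes gave 11 damped rises, of which 7 passed the filter only through WT FAEE-SAP, so the count is shaped by the filter. Of 19 tested, 11 were damped (0.907% of all genes) and 2 were kept (1.09%), 13 rose in WT (3.36%) and 0 in cKO (0.126%) by limma with adjustment (8 in cKO at an unadjusted p under 0.05 and 2-fold), and the median response was 2.39 in WT and 0.96 in cKO. Their summed scaled RPKM was 7.90 and 14.3 at the ends of the WT saline range, 76.5 and 79.6 in WT FAEE-SAP, 7.90 to 11.6 in cKO saline, and 23.7 and 35.5 in cKO FAEE-SAP. The granule genes *Mpo* and *Elane* and the surface marker *Ly6g* stayed under the filter in every group. *Fpr1*, a receptor for bacterial formyl peptides, was called. It was at 0 and 0 in WT saline, 2.64 and 2.01 in WT FAEE-SAP, 0.0967 and 0.108 in cKO saline, and 0.0785 and 0.125 in cKO FAEE-SAP, the WT saline libraries having no reads. WT FAEE-SAP was at least 22.6-fold higher than WT saline, with saline set at 3 reads per library, and the reads worked out were 161.9 and 168.4 in WT FAEE-SAP against 3.0 and 5.0 in cKO FAEE-SAP. The interaction was -4.60 (SE 0.43, limma adjusted p = 0.038), a value that depends on the pseudocount of 0.1. *S100a8*, a subunit of calprotectin, was at 0.140 and 0.304 in WT saline, 18.6 and 15.8 in WT FAEE-SAP, 0.984 and 0.345 in cKO saline, and 4.39 and 2.63 in cKO FAEE-SAP, with an interaction of -3.46 (SE 0.66, limma adjusted p = 0.151). Its cKO FAEE-SAP values lay above all saline values and under WT FAEE-SAP. *Cxcr2* and *Csf3r*, the receptors for CXCL chemokines and for G-CSF that neutrophils carry, were kept rises, with interactions of -0.98, close to the limit of the sort, and -0.08.

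Chemokines differed among themselves. Of 24 tested, 6 were damped rises (0.907% of all genes), 5 were kept rises (1.09%), and 13 were in no class, and all 6 damped ones passed the filter only through WT FAEE-SAP. The damped ones were *Cxcl1*, *Cxcl2*, *Cxcl3*, and *Cxcl5*, ligands of CXCR2, with *Cxcl17* and *Ccl3*. *Ppbp*, another CXCR2 ligand that is not in this list and was named after its value was seen, was an enlarged rise, with responses of 2.19 in WT and 4.08 in cKO and an interaction of 1.89 (SE 0.62) that missed the adjusted threshold (limma adjusted p = 0.311). The kept ones were *Ccl2* and *Ccl12*, ligands of CCR2 on monocytes, *Ccl6* and *Ccl9*, ligands of CCR1, and *Cxcl14*. *Cxcl2* was at 0 and 0 in WT saline, 1.21 and 2.40 in WT FAEE-SAP, 0.0864 and 0.0485 in cKO saline, and 0.105 and 0.117 in cKO FAEE-SAP. The WT FAEE-SAP libraries stood far above the other 6, and against the floor of 3 reads per library WT FAEE-SAP was at least 27.4-fold higher than WT saline. *Cxcl5* was at 6.76 and 2.19 in WT FAEE-SAP, 0.390 and 0.0712 in cKO FAEE-SAP, and 0 to 0.0257 with saline. *Ccl2*, in contrast, was at 0.170 and 0.148 in WT saline, 5.11 and 1.80 in WT FAEE-SAP, 0.187 and 0.126 in cKO saline, and 3.01 and 1.08 in cKO FAEE-SAP. Its FAEE-SAP libraries overlapped between genotypes, it responded by 3.60 and 2.91, and the interaction of -0.69 had an SE of 0.80, too wide to show that the responses are alike. *Ccl9* was called in both genotypes, by 1.44 in WT and 1.87 in cKO. The difference between CXCR2 ligands and monocyte chemokines was not tested. Over the 24 chemokines the median interaction was -0.63, and 11 of them passed the filter only through WT FAEE-SAP (45.8%, against 11.9% of all genes). The median turned positive without either WT FAEE-SAP library, over those chemokines that still passed the filter.

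Promoters are shown for *Saa3*, which was called but is not in the sort, with C/EBP letters, and for the damped rise *Cxcl2*, with NF-kB letters, since C/EBP factors and NF-kB are known to drive acute-phase and chemokine genes. The windows are chr7:46715677-46715926 (minus strand) for *Saa3* and chr5:90903649-90903898 (plus strand) for *Cxcl2*, each the 250 bases before the RefSeq start in GRCm38.p6, with the letters TTGCNNAA (C/EBP) and with GGGA followed after 2 bases by TTCC (NF-kB) searched on both strands and capitals marking the match. Both NF-kB matches of *Cxcl2* overlap in the same run of 11 letters.
Saa3: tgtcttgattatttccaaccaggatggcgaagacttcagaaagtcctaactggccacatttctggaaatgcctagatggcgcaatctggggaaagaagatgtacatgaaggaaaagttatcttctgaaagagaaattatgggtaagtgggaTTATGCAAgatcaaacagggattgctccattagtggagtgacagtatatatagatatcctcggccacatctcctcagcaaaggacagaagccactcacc
Cxcl2: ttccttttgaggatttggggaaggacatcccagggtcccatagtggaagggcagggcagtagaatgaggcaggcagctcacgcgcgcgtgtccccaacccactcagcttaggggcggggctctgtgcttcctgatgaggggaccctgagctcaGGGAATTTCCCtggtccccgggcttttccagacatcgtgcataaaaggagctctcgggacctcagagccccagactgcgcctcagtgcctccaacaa
The match begins 99 bases before the start in *Saa3* and 97 bases before it in *Cxcl2*. Over windows of 300 bases, TTGCNNAA stood in 20 of 73 damped rises with a promoter in the table (27.4%), 9 of 92 kept rises (9.8%), 8.2% of the matched tested genes, and 10.8% of all promoters. *Saa1*, *Saa2*, *Lcn2*, *Ptx3*, *S100a9*, *Mmp8*, *Ngp*, and *Retnlg* were among the 20. The NF-kB letters stood in 4 damped rises (5.5%), of which 3 were *Cxcl1*, *Cxcl2*, and *Cxcl3*, in 3 kept rises (3.3%), and in 1.6% of the matched tested genes. STAT letters, TTCNNNGAA, stood in 15.1% of damped and 10.9% of kept rises (6.8% of tested genes), and AP-1 letters, TGANTCA, in 12.3% and 12% (4.8%). These shares describe short windows and were not tested.

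**Figure D3:**
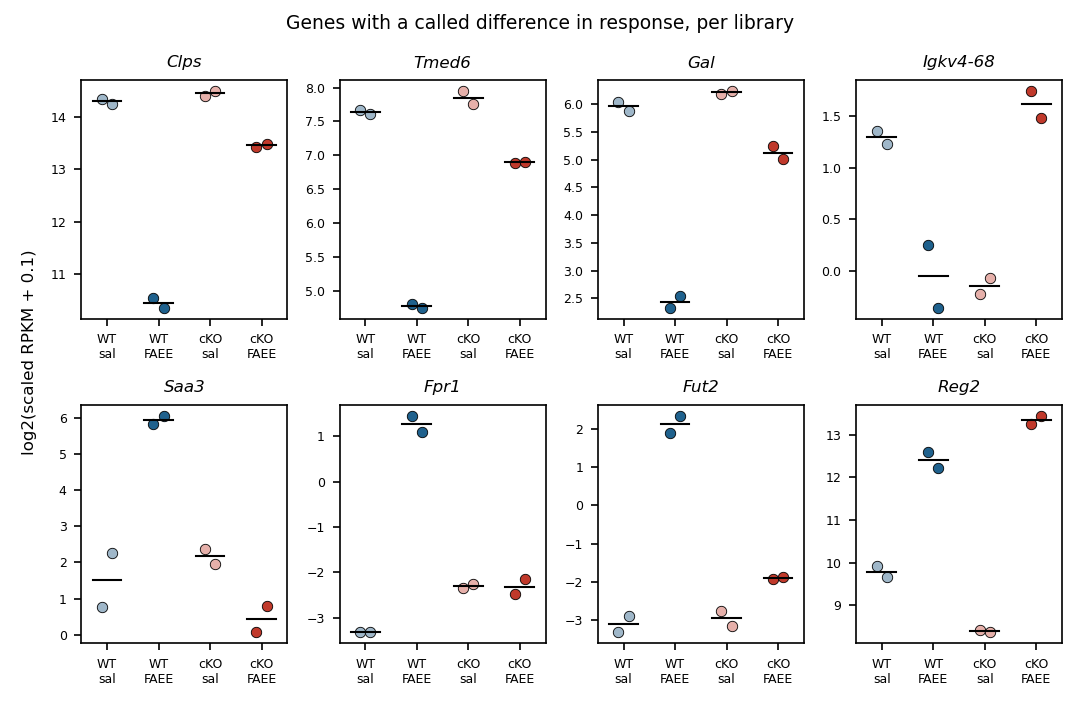
Each panel is a gene called in the interaction, with 1 point per library at log2(scaled RPKM + 0.1) and a bar at the mean of the 2 libraries, for WT and cKO with saline (sal) and FAEE-SAP (FAEE). In *Clps*, *Tmed6*, and *Gal* the cKO FAEE-SAP libraries stand above those of WT, in *Saa3*, *Fpr1*, and *Fut2* they stand far below, and in *Reg2* the cKO libraries are lower than WT with saline and higher with FAEE-SAP.

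Genes of ducts and metaplasia moved in both directions. *Fut2*, a fucosyltransferase of secretory epithelium (chr7:45648591-45666394), was called. It was at 0 and 0.0347 in WT saline, 3.59 and 4.99 in WT FAEE-SAP, 0.0468 and 0.0131 in cKO saline, and 0.161 and 0.173 in cKO FAEE-SAP, and the interaction was -4.17 (SE 0.45, limma adjusted p = 0.0413). Its WT FAEE-SAP libraries stood far above the other 6. *Krt20*, a keratin of injured and intestinal-type epithelium, was at 0.0251 and 0 in WT saline, 15.4 and 23.0 in WT FAEE-SAP, 1.08 and 0 in cKO saline, and 4.60 and 3.92 in cKO FAEE-SAP, with an interaction of -3.74 (SE 1.36), or -1.96 without cKO saline 1. That library, the one at 1.08, also held transcripts of gut or liver absent or near absent elsewhere, such as Apoa1 at 6.51 and Tff3 at 2.10 RPKM as deposited, and their part in this value was not tested. Of the 20 tested genes of ducts and metaplasia 5 were damped rises (*Krt8*, *Krt20*, *Cldn4*, *Epcam*, and *Fut2*; 0.907% of all genes), 2 were kept rises (*Spp1* and *Clu*; 1.09%), and *Tff2*, a trefoil peptide, was a damped fall (1.2%), so the list had no common direction and a median interaction of 0.02. *Hspb1*, a small heat shock protein, was at 10.5 and 7.38 in WT saline, 115 and 92.0 in WT FAEE-SAP, 7.08 and 28.3 in cKO saline, and 13.8 and 20.8 in cKO FAEE-SAP. cKO FAEE-SAP lay within the cKO saline range, far under WT FAEE-SAP, and the interaction was -3.28 (SE 0.82, limma adjusted p = 0.228).

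No gene of the signaling lists was called in the interaction. *Rela*, the p65 subunit of NF-kB, was at 6.04 and 4.67 in WT saline, 15.2 and 24.7 in WT FAEE-SAP, 4.62 and 6.72 in cKO saline, and 4.84 and 6.42 in cKO FAEE-SAP, with WT FAEE-SAP above all other libraries and an interaction of -1.85 (SE 0.43, limma adjusted p = 0.203). *Tnfrsf1a*, a receptor for TNF, was a damped rise at -1.47 (SE 0.30). *Socs3*, the feedback inhibitor of STAT3 signaling, rose in WT by 3.24 against 1.11 in cKO, where its libraries were 5.26 and 1.94. *Junb*, an AP-1 subunit, had an interaction of -2.53 (SE 0.47). Each of these missed the adjusted threshold. Medians over the lists were -0.29 for 17 NF-kB subunits and feedback genes, -0.51 for 15 STAT3 and SOCS genes, -0.65 for 25 immediate early genes, -0.18 for 29 cytokines and receptors, and -0.99 for 20 p53 targets, of which 8 had unadjusted p under 0.05 with a negative value (6.39% of all genes) and 5 passed the filter only through WT FAEE-SAP (11.9% of all genes). Without 1 library the median turned to 0.14 for the STAT3 and SOCS genes (without cKO saline 2) and to 0.03 for the cytokines and receptors (without WT saline 1). Among the p53 targets *Aen*, an apoptosis nuclease, responded by 0.98 in WT and -0.42 in cKO.

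Of 24 macrophage and monocyte genes tested, 5 were kept rises (*Fcgr1*, *Spp1*, *Msr1*, *Chil3*, and *Fcer1g*; 1.09% of all genes), 1 was an enlarged rise (0.117%), and 0 were damped, and 5 had unadjusted p under 0.05 with a positive interaction (6.17%). *Spp1* is also counted in the list of ducts and metaplasia, and which cells held it was not tested. The list had a median response of 0.35 in WT and 0.81 in cKO, and its summed scaled RPKM was 179.5 and 212.3 in WT FAEE-SAP against 201.7 and 238.5 in cKO FAEE-SAP, which overlapped. *Chil3*, a chitinase-like protein of activated macrophages, was at 0.919 and 0.699 in WT saline, 5.87 and 5.46 in WT FAEE-SAP, 0.889 and 2.14 in cKO saline, and 9.33 and 17.0 in cKO FAEE-SAP. *C1qa*, a complement subunit made by resident macrophages, was at 10.6 and 13.6 in WT saline, 10.3 and 9.13 in WT FAEE-SAP, 9.60 and 11.7 in cKO saline, and 20.3 and 17.3 in cKO FAEE-SAP, where the cKO FAEE-SAP libraries were the highest, and its interaction was 1.12 (SE 0.28, limma adjusted p = 0.228). *C1qb*, *C1qc*, and *Mrc1*, the mannose receptor, had interactions of 0.85, 0.99, and 1.29. Of 31 fibroblast and matrix genes 3 were kept rises (1.09%) and 28 were in no class. Of the kept rises, *Timp1*, an inhibitor of matrix metalloproteases, rose in both genotypes, by 3.37 in WT and 3.98 in cKO.

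The genes whose interval lay within 1 either way are those that the data best place as equal. By the naming rule the rises were *Ms4a6d*, a membrane protein of myeloid cells, *Srpx*, *Tubb6*, a beta tubulin, *Ly6a*, which encodes SCA-1, and *Hmgn2*, a nucleosome-binding protein. *Tubb6* was at 0.661 and 0.842 in WT saline, 2.45 and 2.13 in WT FAEE-SAP, 0.826 and 0.709 in cKO saline, and 2.21 and 2.02 in cKO FAEE-SAP, so that treated and saline libraries separated in the same way in both genotypes, with an interaction of -0.14 (SE 0.28). The falls were *Lcmt1*, a methyltransferase of protein phosphatase 2A, *Arl4a*, *Igfbp6*, an IGF-binding protein, *Ankrd24*, and *Nbl1*, a BMP antagonist. *Lcmt1* was at 16.1 and 14.3 in WT saline, 5.56 and 5.57 in WT FAEE-SAP, 16.5 and 18.7 in cKO saline, and 6.18 and 6.70 in cKO FAEE-SAP, and it was the 1 gene whose fall was called in cKO. Interactions of these 10 genes ranged from -0.25 for *Hmgn2* to 0.25 for *Ms4a6d*, and the sign turned in 9 of them under at least 1 alternative setting.

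The Reg family showed the opposite of damping. Reg proteins are small lectin-like proteins that acinar cells secrete under stress, of which the REG3 members bind bacteria. Of 6 tested, 5 were enlarged rises, against 0.117% of all genes, and all 5 rose in both genotypes. The median response was 2.78 in WT and 5.44 in cKO. *Reg2* (chr6:78395623-78408106) passed the test of the interaction. It was at 971 and 807 in WT saline, 6138 and 4739 in WT FAEE-SAP, 344 and 329 in cKO saline, and 9691 and 11163 in cKO FAEE-SAP. cKO saline lay under WT saline and cKO FAEE-SAP above WT FAEE-SAP, without overlap, and the interaction was 2.34 (SE 0.25, limma adjusted p = 0.0413).

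In each of the 5 the genotype difference was larger with saline than with FAEE-SAP. *Reg3b* was at 771 and 567 in WT saline, 5881 and 4432 in WT FAEE-SAP, 132 and 104 in cKO saline, and 6086 and 8433 in cKO FAEE-SAP, and its genotype difference was -2.49 with saline and 0.49 with FAEE-SAP. Its interaction of 2.98 (SE 0.35) missed the threshold (limma adjusted p = 0.0567). *Reg3g* was at 40.6 and 55.3 in WT saline, 815 and 595 in WT FAEE-SAP, 8.96 and 1.99 in cKO saline, and 436 and 564 in cKO FAEE-SAP, and *Reg3a* was at 51.4 and 38.7 in WT saline, 1739 and 959 in WT FAEE-SAP, 10.2 and 4.12 in cKO saline, and 1113 and 1700.4 in cKO FAEE-SAP. With FAEE-SAP the genotypes overlapped in *Reg3a* and cKO lay under WT in *Reg3g*, while with saline cKO lay far under WT in both. *Reg3d* had an interaction of 1.19, and *Reg1*, which responded by -0.40 in WT and 0.41 in cKO, was called in neither. The median genotype difference of the family was -1.94 with saline and 0.40 with FAEE-SAP, and the sum of its members was 8785.4 and 11833.1 in WT saline, 16996.0 and 22864.1 in WT FAEE-SAP, 8035.9 and 8287.7 in cKO saline, and 28062.9 and 33530.3 in cKO FAEE-SAP.

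**Figure D4:**
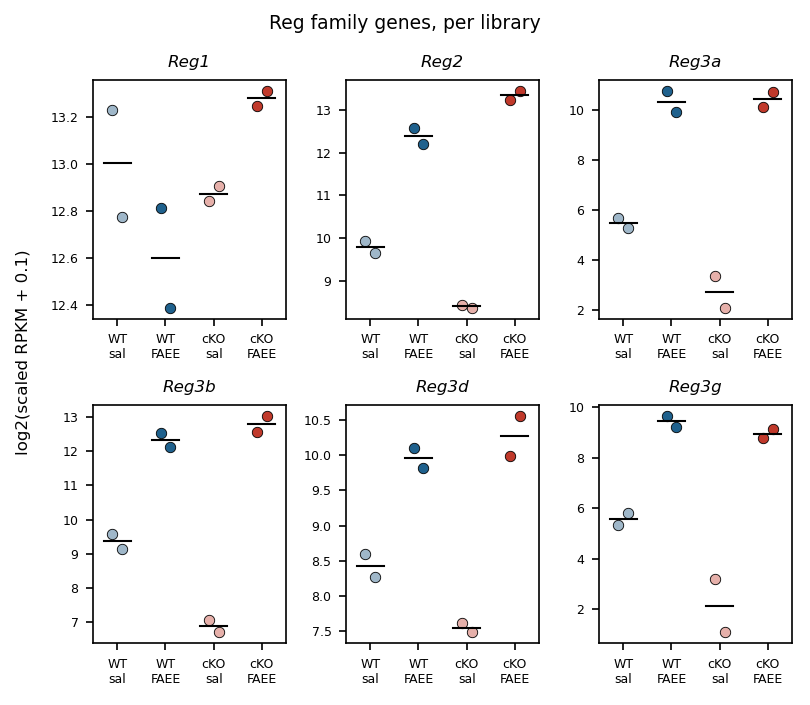
Each panel is a Reg gene, with 1 point per library at log2(scaled RPKM + 0.1) and a bar at the mean of the 2 libraries, for WT and cKO with saline (sal) and FAEE-SAP (FAEE). In 5 of the 6 genes, all but *Reg1*, the cKO saline libraries are the lowest and the FAEE-SAP libraries of both genotypes are high.

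The promoter of *Reg3b* is printed because the family's genotype difference was larger with saline, and STAT3 is known to act on Reg3 genes. The window is chr6:78370635-78370884, plus strand, the 250 bases before the RefSeq start in GRCm38.p6, which lies 228 bases from the start of the gene in GENCODE vM21, and capitals mark TTCNNNGAA (STAT) and CACCTG (PTF1).
Reg3b: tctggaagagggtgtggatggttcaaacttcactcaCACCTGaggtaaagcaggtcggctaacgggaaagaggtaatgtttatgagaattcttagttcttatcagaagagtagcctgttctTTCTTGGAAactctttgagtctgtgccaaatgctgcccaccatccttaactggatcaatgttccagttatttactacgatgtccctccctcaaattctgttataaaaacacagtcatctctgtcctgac
These begin 129 and 214 bases before the start. Of the 8 enlarged rises with a promoter in the table, 2 held the STAT letters and 5 held CACCTG, counts too small to set beside the shares of all genes.

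Other enlarged rises were few. *Car9*, the carbonic anhydrase induced by hypoxia, was at 0.273 and 0.385 in WT saline, 1.72 and 0.274 in WT FAEE-SAP, 0.278 and 0.312 in cKO saline, and 3.31 and 3.60 in cKO FAEE-SAP, and its interaction was 2.21 (SE 0.90). WT FAEE-SAP 2 stood with saline and WT FAEE-SAP 1 above it, while both cKO FAEE-SAP libraries were higher still. Over 26 glycolysis and hypoxia genes the median interaction was 0.13 and no member was called in it, with *Pfkm*, muscle-type phosphofructokinase, at 1.03 (SE 0.26). The 3 enlarged falls were *Rbp2*, *Alox15*, and *Xlr3a*. *Alox15*, an arachidonate lipoxygenase of eosinophils and macrophages, was at 0.138 and 0.568 in WT saline, 0.158 and 0.0257 in WT FAEE-SAP, 2.12 and 1.21 in cKO saline, and 0.0847 and 0.0135 in cKO FAEE-SAP, and the cKO saline libraries were the highest. *Rbp2*, a retinol-binding protein of intestinal epithelium, and *Xlr3a* were named after their values were seen. *Rbp2* was at 1.41 and 0.22 in WT saline, 0.0672 and 0.0164 in WT FAEE-SAP, 6.78 and 4.53 in cKO saline, and 0.144 and 1.21 in cKO FAEE-SAP. In cKO saline 1 the gut or liver transcripts named for *Krt20* were joined by Cyp3a11 at 2.44 RPKM as deposited, against 0 in the other 7 libraries and at most 0.114 for Apoa1, and their part in the value of *Rbp2* was not tested.

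Antibody genes were among those with opposite responses in the genotypes. *Igkv4-68* (chr6:69304834-69305405), a kappa light chain variable segment, was called at 3.11 (SE 0.34, limma adjusted p = 0.0413). It was at 2.46 and 2.25 in WT saline, 1.09 and 0.681 in WT FAEE-SAP, 0.758 and 0.851 in cKO saline, and 3.25 and 2.69 in cKO FAEE-SAP. Reads worked out for it were 20 and 21 in WT saline and 20 and 16.9 in WT FAEE-SAP, so the lower WT FAEE-SAP values follow from the scaling, and in cKO they were 7.0 and 7.0 with saline and 37.0 and 31.9 with FAEE-SAP. *Igkv1-110*, *Igkv9-124*, *Igkv3-7*, and *Ighv8-5* had interactions of 3.05, 4.84, 3.42, and 3.16. These are variable segments of a family with near-identical copies, each clone of plasma cells uses its own, and the list of 17 B and plasma cell genes had a median interaction of 0.34. *Igha*, the constant region of IgA, was at 7.11 and 7.24 in WT saline, 6.49 and 8.01 in WT FAEE-SAP, 6.22 and 9.51 in cKO saline, and 18.7 and 20.3 in cKO FAEE-SAP, with the cKO FAEE-SAP libraries highest and an interaction of 1.32 (SE 0.32, limma adjusted p = 0.217).

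For the other direction, a positive WT difference beside a negative cKO difference, the rule named *Saa3*, *Neat1*, and *Slpi*. *Slpi*, a secreted inhibitor of neutrophil elastase, was at 2.95 and 4.26 in WT saline, 7.19 and 7.84 in WT FAEE-SAP, 7.66 and 5.56 in cKO saline, and 3.90 and 2.39 in cKO FAEE-SAP. WT FAEE-SAP lay above WT saline and cKO FAEE-SAP under cKO saline, and the interaction was -2.13 (SE 0.42, limma adjusted p = 0.151). *Neat1*, a nuclear long noncoding RNA, had an interaction of -2.64 (SE 0.68), and its FAEE-SAP libraries were 102 and 59.5 in WT and 32.1 and 11.0 in cKO.

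The islet, T cell, and antigen presentation lists had median responses under zero in WT and above zero in cKO. The 16 islet genes tested had a median response of -0.71 in WT and 0.35 in cKO, 15 interactions were positive, and 9 had unadjusted p under 0.05 with a positive value (6.17% of all genes). The 1 member that passed the adjusted test was *Gal*, which this list holds. *Gcg*, glucagon, was at 20.4 and 17.3 in WT saline, 9.89 and 8.91 in WT FAEE-SAP, 24.1 and 23.2 in cKO saline, and 27.7 and 33.4 in cKO FAEE-SAP. WT FAEE-SAP was lowest and cKO FAEE-SAP highest, and the interaction was 1.35 (SE 0.24, limma adjusted p = 0.143). *Ins2*, an insulin gene, had an interaction of 1.06, and *Sst*, somatostatin, one of 1.54. For 13 T cell genes all interactions were positive, with a median of 0.94 and a median genotype difference of -0.80 with saline, and for 17 genes of antigen presentation they were positive as well, with a median of 0.69 and -0.62 with saline. Summed T cell genes ranged from 12.9 to 30.3 in WT saline and from 8.80 to 23.3 in cKO FAEE-SAP, a spread within groups as wide as that between them.

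Stromal and housekeeping lists moved by less. Medians of the interaction were 0.61 for 31 fibroblast and matrix genes, 0.48 for 15 endothelial genes, 0.38 for 24 interferon-stimulated genes, 0.43 for 32 respiratory chain genes, 0.34 for 38 ribosomal protein genes, all 38 of which were positive, and 0.08 for 25 calcium handling genes. Within the calcium list *Orai2*, a store-operated channel subunit, was at -1.25 in WT and 0.32 in cKO (interaction 1.57, SE 0.36). With the values as deposited, which shift the median interaction of all genes to -0.63, the medians of these 6 lists were negative, as were those of the macrophage, integrated stress response, granule, and ER lists, whereas the digestive enzyme, islet, T cell, antigen presentation, Reg, acute-phase, neutrophil, and p53 lists kept their sign in all 19 alternative settings, though a general shift toward negative values could not have turned the negative ones. Their size did move, from 0.16 to 1.24 for digestive enzymes, 0.47 to 1.35 for islet genes, 0.22 to 1.51 for T cells, 0.01 to 1.25 for antigen presentation, 1.52 to 2.86 for the Reg family, -3.07 to -0.98 for acute-phase genes, -1.97 to -0.48 for neutrophil genes, and -1.66 to -0.55 for p53 targets. Leaving out 1 library also turned the medians of the B and plasma cell, interferon-stimulated, ductal, ER, and glycolysis lists. The 15 clock genes had a median interaction of -0.56, which went to 0 without WT FAEE-SAP 2, and *Nr1d1*, the repressor REV-ERB alpha, was at 0.676 and 0.865 in WT saline, 1.97 and 3.03 in WT FAEE-SAP, 0.984 and 1.14 in cKO saline, and 0.574 and 0.442 in cKO FAEE-SAP with an interaction of -2.50 (SE 0.37, limma adjusted p = 0.0765). WT FAEE-SAP stood above the other 6 libraries, and the hour of collection is not given in the sources used here.

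**Figure D5:**
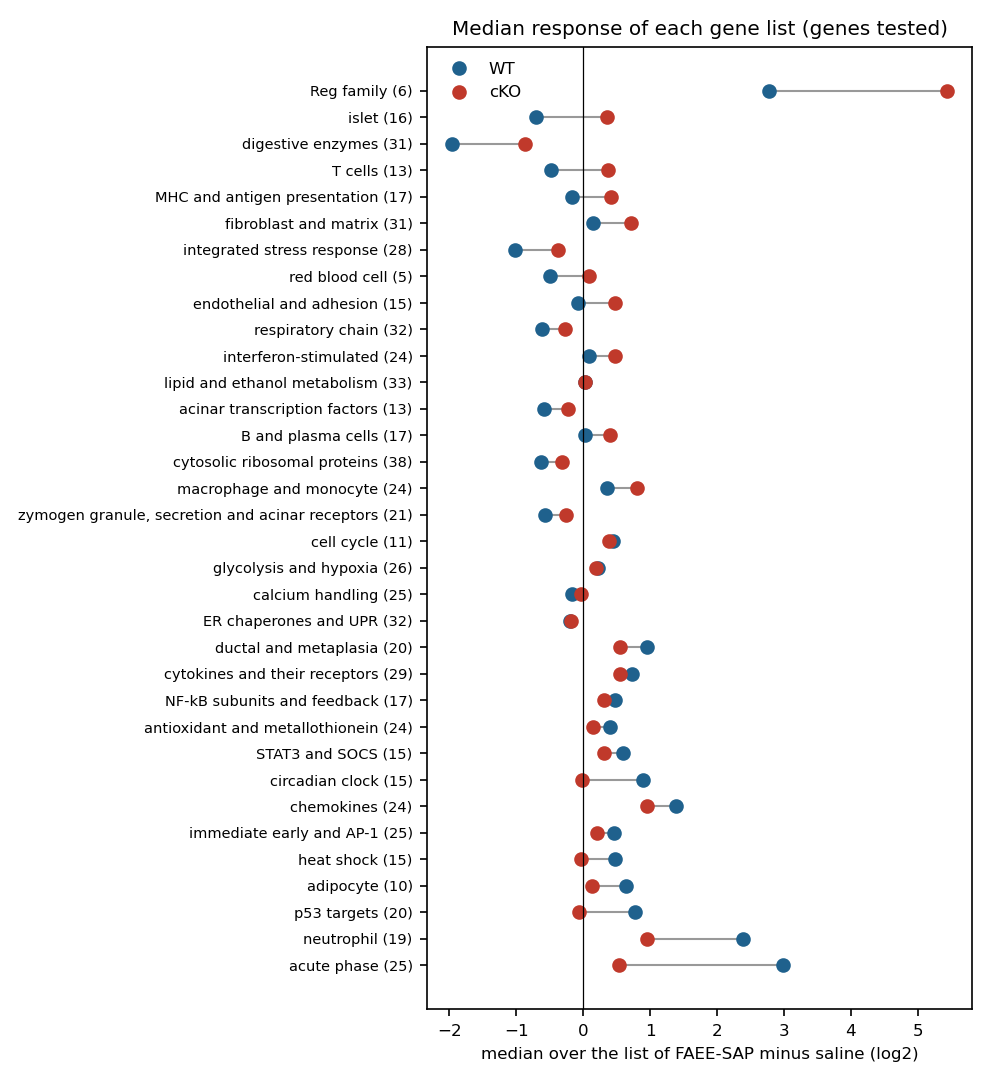
For each gene list with at least 5 genes tested (number in brackets), the median FAEE-SAP minus saline difference in WT and in cKO is plotted (x axis, log2), ordered by the median interaction. The acute-phase and neutrophil lists at the bottom have a WT median far above that of cKO, and the Reg family at the top has the reverse.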

How the data were processed

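RNA-Seq libraries of mouse pancreas, 2 in each of 4 groups, were grouped by the genotype, treatment, and replicate in their labels. By the study's methods, directional paired-end libraries were filtered with fastp and mapped to GRCm38.p6 with CLC Genomics Workbench. The authors deposited RPKM for 48709 genes per library, and how RPKM were computed is not given in the sources used here. Library totals were recovered from low values with exon lengths of GENCODE vM21, which matched 46319 genes (95.1%) by symbol. Of values under 20 reads, 84.1% to 85.3% came out whole within 0.1 reads, so reads per gene are approximate, and depth was 22.9 to 37.6 M reads. The Pearson correlation between replicates was 0.947 to 0.959 across genes.

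Libraries were scaled by the median of ratios over genes above 0 in all 8 files. Values were tested as log2(scaled RPKM + 0.1) with limma 3.58.1 (intensity trend) in R 4.3.3, with 4 group means over all 8 libraries, for 11133 genes with RPKM of at least 0.5 in at least 2 libraries. A fold change on this scale understates the change of low genes. P-values measure the spread between these libraries. Calls needed a Benjamini-Hochberg adjusted p under 0.05 and at least 2-fold. Responding genes were those called on the mean of the WT and cKO responses. The genes, the sort, and the 35 gene lists, written from general knowledge, were chosen with earlier results of these data known. Named were *Pfkfb3*, every interaction call, up to 5 genes per class (largest interaction with unadjusted p under 0.05, treated-minus-saline differences that do not overlap, and a group mean of at least 1, and for kept genes the largest mean response with an interval within 1 either way), up to 3 opposite responses per direction, and up to 4 members per list. Other genes are given as members of a class or list. Results of some genes that the rule takes are not reported here. Promoters came from RefSeq (GRCm38.p6), with 8468 tested genes matched. Alternatives were other scalings, filters, pseudocounts, limma without the trend, voom, the replicate number as a block, other sorts, and each library left out. The fit was also run on simulated counts with equal group means apart from set interactions and the same spread setting for every gene. That run does not check how the fit handles scaling factors as unlike as those here. Tables were handled in Python 3.11.15 (pandas 2.3.3, numpy 2.4.6) and plotted with matplotlib 3.10.9.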

Additional observations from a re-analysis of the deposited data

Results flagged for a closer look

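In 8 genes the response to FAEE-SAP differed between cKO and WT by the test of the interaction itself (limma with Benjamini-Hochberg adjustment over 11133 genes). Positive values, a cKO difference above that of WT, were 3.11 for *Igkv4-68*, 2.86 for *Clps*, 2.44 for *Gal*, 2.34 for *Reg2*, and 1.91 for *Tmed6*. Negative values were -6.17 for *Saa3*, -4.60 for *Fpr1*, and -4.17 for *Fut2*. *Fpr1* and *Fut2* passed the filter on RPKM only through the WT FAEE-SAP libraries, so they had to be high there to be tested. In each the treated-minus-saline differences of the genotypes did not overlap, as in 28.4% of all genes tested. *Igkv4-68* rests on 7.0 to 37.0 reads per library, and *Fpr1* on at most 5.0 reads outside WT FAEE-SAP. No explanation was tested for these values.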

How the results depend on the processing

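Counts with the settings described were 5 positive interaction calls, 3 negative interaction calls, 235 responding rises, 230 responding falls, 101 damped rises, 121 kept rises, 13 enlarged rises, 134 damped falls, 93 kept falls, 3 enlarged falls, 833 WT calls, and 15 cKO calls. With values as deposited, where the median interaction over all genes was -0.63, the WT response 1.23 and the cKO response 0.57, there were 21 positive interaction calls, 770 negative interaction calls, 4474 responding rises, 31 responding falls, 1867 damped rises, 2572 kept rises, 35 enlarged rises, 20 damped falls, 10 kept falls, 1 enlarged fall, 7202 WT calls, and 745 cKO calls. All 8 interaction calls were among those 791, which were 21 positive and 770 negative. Quantile normalization gave 14 positive interaction calls, 11 negative interaction calls, and 1 enlarged fall. Without a filter on low values (20358 genes, 1981 at an unadjusted p under 0.05, limma) there were 0 positive interaction calls, 0 negative interaction calls, 89 damped falls, and 541 WT calls. An RPKM minimum of 2 (6872 genes) gave 27 positive interaction calls, 8 negative interaction calls, 75 kept rises, 55 kept falls, and 0 enlarged falls. A pseudocount of 1 gave 12 positive interaction calls, 12 negative interaction calls, 82 responding rises, 113 responding falls, 40 damped rises, 34 kept rises, 8 enlarged rises, 61 damped falls, 51 kept falls, 1 enlarged fall, and 414 WT calls. A pseudocount of 0.01 gave 1 positive interaction call, 0 negative interaction calls, and 1 enlarged fall. Limma without the trend gave 1 positive interaction call. Voom on reads worked out from RPKM gave 1 negative interaction call, and 8 cKO calls. At an unadjusted p under 0.05 with 2-fold there were 424 positive interaction calls, 358 negative interaction calls, 26 enlarged rises, 6 enlarged falls, 1266 WT calls, and 366 cKO calls. Sorted by the ratio of the responses, there were 8 enlarged rises, and 1 enlarged fall. Among genes called in WT the sort gave 211 damped rises, 6 enlarged rises, 263 damped falls, 196 kept falls, and 0 enlarged falls. Among genes called in cKO it gave 2 damped rises, 6 kept rises, 6 enlarged rises, 0 damped falls, 1 kept fall, and 0 enlarged falls. With each library left out in turn, the lone library of its group being assumed to vary like the other groups, there were 0 to 4 positive interaction calls, 0 to 2 negative interaction calls, 108 to 222 responding rises, 122 to 249 responding falls, 44 to 90 damped rises, 56 to 109 kept rises, 8 to 24 enlarged rises, 72 to 169 damped falls, 44 to 142 kept falls, 0 to 6 enlarged falls, 172 to 817 WT calls, and 6 to 14 cKO calls. WT calls were 172 without WT saline 1, 296 without WT saline 2, and 187 without WT FAEE-SAP 2, and no interaction was called without WT saline 1, cKO FAEE-SAP 1, or cKO FAEE-SAP 2 (1097, 1036, and 1289 genes at an unadjusted p under 0.05, limma).

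The labels do not say that a replicate number marks mice handled together, and replicate differences of same-numbered libraries correlated from -0.522 to 0.399 between groups across genes, so the numbers were not taken as a pairing. With the replicate number as a block there were 0 positive interaction calls, 0 negative interaction calls, 1 enlarged fall, and 9 cKO calls. It moved no other count by over 1.5 times. A block that exchanges the numbers of the WT saline libraries, chosen after seeing the data, gave 38 positive interaction calls, 30 negative interaction calls, 21 enlarged rises, and 63 cKO calls.

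Of the interactions of named genes, 17 had the other sign in at least 1 alternative (45 values), and 0 of these genes were called. With values as deposited the interaction was -0.52 for *Pfkfb3*, -0.42 for *Ms4a6d*, -0.47 for *Ankrd24*, -0.08 for *B2m*, -0.07 for *Cox8a*, -0.05 for *Rpl3*, -0.12 for *Rpl7a*, -0.18 for *Rpl10a*, -0.08 for *Hbb-bs*, and -0.09 for *Hba-a2*. With the trimmed mean of log ratios the interaction was 0.01 for *Srpx*, 0.03 for *Lcmt1*, and 0.01 for *Arl4a*. With a pseudocount of 1 the interaction was 0.08 for *Srpx*. With quantile normalization the interaction was 0.12 for *Lcmt1*. With an RPKM minimum of 2 the interaction was 0.07 for *Lcmt1* and 0.05 for *Arl4a*. With a pseudocount of 0.01 the interaction was 0 for *Arl4a*. With each library left out in turn it was -0.44 to 0.74 for *Pfkfb3*, -0.27 to 0.22 for *Srpx*, -0.3 to 0.01 for *Tubb6*, -0.42 to 0.12 for *Ly6a*, -0.1 to 0.08 for *Lcmt1*, -0.42 to 0.37 for *Arl4a*, -0.35 to 0.01 for *Igfbp6*, -0.11 to 0.33 for *Ankrd24*, -0.36 to 0.04 for *Nbl1*, -0.55 to 1.7 for *Hbb-bs*, and -0.58 to 1.71 for *Hba-a2*.

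The 8 called genes were also called with the trimmed mean of log ratios (9 calls in all), with quantile normalization (25), with an RPKM minimum of 2 (35), and with a pseudocount of 1 (24), and 5 of them with voom. Of these 8, 3 were called without the trend, 1 with a pseudocount of 0.01, 0 to 2 with a library left out, and 0 without a filter or with the replicate block (1981 and 1314 genes at an unadjusted p under 0.05, limma). With 2 libraries per group, regrouping libraries cannot reach a small p, so all tests rest on the spread that limma pools over genes. The cause of these moves was not tested. Depth of 22.9 to 37.6 M reads limits genes of few reads, such as *Fpr1* and *Igkv4-68*.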

Other observations

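Genes of lipid and ethanol metabolism moved in both directions. Of 33 tested, 7 fell (4.12% of all genes) and 1 rose (3.36%) in WT, 3 were damped falls (1.2%), 2 were kept falls (0.835%), and 1 each was a damped and a kept rise, with a median interaction of 0.36. *Plin2*, which coats lipid droplets, was at 1.46 and 2.2 in WT saline, 9.72 and 15.9 in WT FAEE-SAP, 2.47 and 1.61 in cKO saline, and 6.62 and 3.74 in cKO FAEE-SAP, so that treated libraries lay above saline in both genotypes and WT lay above cKO. Its interaction was -1.45 (SE 0.54). *Ces1d*, a carboxylesterase, was at 9.36 and 8.33 in WT saline, 1.25 and 1.33 in WT FAEE-SAP, 8.21 and 5.74 in cKO saline, and 3.95 and 7.05 in cKO FAEE-SAP, with an interaction of 2.31 (SE 0.42), and *Acadm*, for medium-chain fatty acid oxidation, had one of 1.62 (SE 0.40). *Scd2*, a fatty acid desaturase, responded by -1.31 in WT and 0.77 in cKO. *Lpl*, lipoprotein lipase, was the 1 damped fall of 10 adipocyte genes, at -2.23 in WT and -0.50 in cKO, in a list whose median interaction of -0.89 turned to 0.30 without cKO FAEE-SAP 2. None of these interactions passed the adjusted test.

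Among 24 antioxidant and metallothionein genes the median interaction was -0.32. *Hmox1*, heme oxygenase, was a kept rise, at 1.71 and 1.47 in WT saline, 6.21 and 8.08 in WT FAEE-SAP, 1.53 and 2.3 in cKO saline, and 5.77 and 6.25 in cKO FAEE-SAP, so that treated and saline libraries separated in both genotypes. *Slc39a4*, a zinc importer, was a damped rise at -1.86 (SE 0.49), and *Gstm1*, a glutathione transferase, was a damped fall with responses of -2.21 in WT and -0.71 in cKO. Interferon-stimulated *Ifi27l2b* was at 0.133 and 0.502 in WT saline, 0.256 and 0.101 in WT FAEE-SAP, 1.52 and 0.35 in cKO saline, and 4.12 and 5.64 in cKO FAEE-SAP, with the cKO FAEE-SAP libraries highest and an interaction of 3.01 (SE 0.95) that missed the threshold. Hemoglobin genes, a mark of blood left in the tissue, were most uneven in cKO saline, where *Hbb-bs* was 148 and 30.9, and the part of blood in the leukocyte values was not tested.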
